A study of Mus musculus with 9 samples.

Results

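Kruppel-like factors (KLFs) are zinc-finger transcription factors of the same superfamily as the SP proteins. They bind GC-rich and CACCC sequences in promoters, and depending on the member and its partners they activate or repress transcription. In the epidermis Klf4 is known for late differentiation and formation of the skin barrier and Klf5 for proliferating keratinocytes. In blood vessels Klf2 and Klf4 are known for the response of endothelium to flow, and Klf6, Klf9, Klf10 and Klf15 are genes that respond quickly to injury, TGF-beta or glucocorticoid hormone in various tissues.

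The family was followed through 10 of its genes, Klf2, Klf3, Klf4, Klf5, Klf6, Klf7, Klf9, Klf10, Klf13 and Klf15, taken as every probe set that the array annotation gives to these symbols. They made up 34 of 45037 probe sets other than controls, and 10 of 18193 genes. Klf2, Klf10 and Klf15 had 1 probe set each, Klf4 had 2, Klf5 and Klf13 had 3, Klf7 had 4, Klf6 had 5, and Klf3 and Klf9 had 7. All 10 genes and 33 of the 34 probe sets passed the filter on low values, which asked for a signal above the array's 40th percentile in at least 3 of the 9 arrays. The probe set left untested was Klf13 1456030_at, whose signal lay between 5.47 and 14.1 in the 9 arrays.

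RNA came from the ear skin of C57BL/6 mice, 6 h after a single compound was applied to the skin surface, with 3 arrays for each of 3 treatments. The treated groups received DNFB (dinitrofluorobenzene, a chemical allergen per the labels) or BAC (benzalkonium chloride, an irritant per the labels), and the control group received the acetone and olive oil vehicle. No genetic change is given for any group, and no dose is stated. Compounds went to the right ears and vehicle to the left ears, so ear side and treatment cannot be told apart. The labels number the replicates without naming separate animals, so the p-values reflect the spread among these arrays only, part of which may be technical. Both compounds were compared with the same 3 vehicle arrays, and a low or high vehicle array moves both comparisons.

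Array-wide signal levels were similar between groups, while 3'/5' ratios of control probe sets differed between BAC and vehicle. The trimmed mean signal was 250.001 in every array, and median signals lay between 72.7 and 86.3 in DNFB arrays, 81.4 and 84.2 in BAC arrays, and 71.2 and 84.0 in vehicle arrays. DNFB replicate 2 had the highest 3'/5' ratio of the Gapdh control probe sets, 1.36, and the other arrays lay between 0.841 and 0.943. This ratio was 0.917 to 0.932 in BAC arrays and 0.856 to 0.880 in vehicle arrays. The actin ratio was 1.09 to 1.28 in DNFB arrays, 1.18 to 1.22 in BAC arrays and 1.05 to 1.10 in vehicle arrays. BAC and vehicle arrays thus did not overlap in either ratio, and the bearing of this on single probe sets was not tested. The keratinocyte markers Krt5, Krt14, Krt1, Krt10, Krt15 and Lor were above the 40th percentile in every array. Neutrophil markers, by contrast, had a summed signal of 10611 to 20204 in DNFB arrays and 18931 to 27590 in BAC arrays, against 1094 to 5596 in vehicle arrays. In such bulk samples a lower signal from fewer cells of a type and from less RNA per cell cannot be told apart.

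Promoter sequences are shown for 4 members: Klf6 and Klf3, which changed after both compounds, and Klf2 and Klf15, which differed between the compounds. Klf5 also changed after both compounds but, like Klf10, had no matched promoter. Each line gives the 250 bases before the annotated gene start, 5' to 3' on the gene's strand, from RefSeq on build GRCm38.p6, where 8 of the 10 members were matched. They lie at chr13:5861239-5861488 (Klf6), chr5:64803271-64803520 (Klf3), chr8:72318812-72319061 (Klf2) and chr6:90462326-90462575 (Klf15), all on the plus strand. Capitals mark the GC box GGGCGG that KLF and SP factors can bind, the E-box CACGTG, and the pattern CTANNNNTAG, each on either strand. This pattern is a loose form of the MEF2 motif, with any base at each N.
Klf6: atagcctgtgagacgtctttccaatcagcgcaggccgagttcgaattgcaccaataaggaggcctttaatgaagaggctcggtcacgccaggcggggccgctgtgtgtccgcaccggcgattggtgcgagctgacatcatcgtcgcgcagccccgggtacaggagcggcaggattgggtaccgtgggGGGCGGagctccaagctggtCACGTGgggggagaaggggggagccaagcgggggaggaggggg
Klf3: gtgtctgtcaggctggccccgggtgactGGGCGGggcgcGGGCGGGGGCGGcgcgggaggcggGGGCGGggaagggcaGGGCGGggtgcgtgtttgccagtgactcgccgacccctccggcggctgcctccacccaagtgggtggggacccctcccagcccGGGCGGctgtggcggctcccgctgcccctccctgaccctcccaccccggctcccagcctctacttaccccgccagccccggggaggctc
Klf2: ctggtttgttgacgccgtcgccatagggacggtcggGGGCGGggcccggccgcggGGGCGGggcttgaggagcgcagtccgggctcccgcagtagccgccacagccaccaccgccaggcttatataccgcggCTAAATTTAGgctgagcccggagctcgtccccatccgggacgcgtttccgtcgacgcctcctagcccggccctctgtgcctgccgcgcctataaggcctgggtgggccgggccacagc
Klf15: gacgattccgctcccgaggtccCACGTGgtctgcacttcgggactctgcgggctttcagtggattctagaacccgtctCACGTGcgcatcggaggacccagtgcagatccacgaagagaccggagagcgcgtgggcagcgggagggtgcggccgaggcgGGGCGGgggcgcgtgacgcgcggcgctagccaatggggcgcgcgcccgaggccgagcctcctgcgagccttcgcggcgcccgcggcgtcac
A GC box stood in 7 of the 8 member promoters and in 35.7% of 32851 mouse promoters of the same 300-base window (250 bases before to 50 after the start). Klf3 had 6 of them, 2 of which abut, Klf2 had 2, and Klf6 and Klf15 had 1 each. The loose MEF2 pattern, found in 3.69% of all promoters, was in 1 member promoter, that of Klf2, starting 118 bases upstream. This share is for the loose pattern and not for a stricter MEF2 site. The E-box, found in 7.15% of all promoters, was in 3 member promoters, those of Klf4, Klf6 and Klf15, with 3 copies in Klf15. The shorter CACCC box was in 6 of 8 member promoters and 57.5% of all. These matches describe the letters only.

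After DNFB, Klf2 and Klf6 rose and Klf3, Klf5 and Klf15 fell, and after BAC, Klf6 and Klf7 rose and Klf3 and Klf5 fell. Counts come from limma over all 14122 tested genes, with a Benjamini-Hochberg adjusted p under 0.05. For DNFB against vehicle 5 of 10 members were called, 2 higher and 3 lower, where 13.8% of all tested genes were called (6.76% higher and 7.08% lower). For BAC against vehicle 4 of 10 were called, 2 higher and 2 lower, against 14.2% of all genes (6.59% higher and 7.64% lower). DNFB set directly against BAC gave 2 of 10, Klf2 higher and Klf15 lower, against 6.8% of all genes (3.14% higher and 3.66% lower). Arrays of the groups did not overlap for 6 of 10 members in DNFB against vehicle (30.9% of all tested genes), 6 in the BAC comparison (34.1%) and 4 between the compounds (25.2%). The members' median log2 change was -0.16, 0.10 and -0.16 in these 3 comparisons, and that of all tested genes 0.00, -0.03 and 0.03. An F test over the 3 treatments passed for 6 of 10 members and 19.4% of all tested genes. The shares of all tested genes called in each comparison are also the background for the listed genes and cell markers below.

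**Figure D1:**
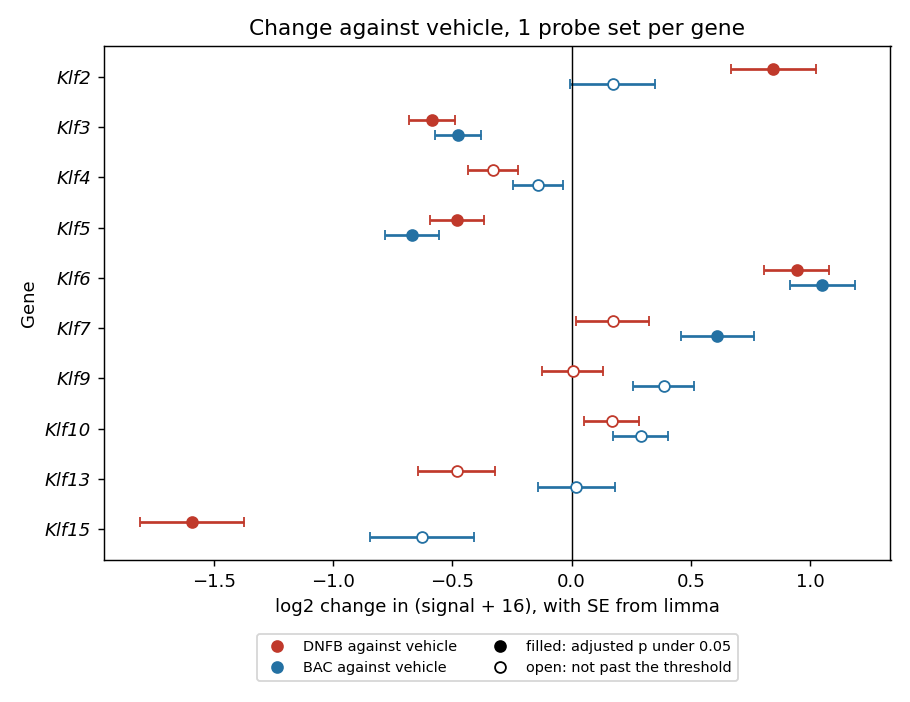
Log2 change of the 10 Kruppel-like factor genes against vehicle (horizontal axis, difference in log2(signal + 16), with SE from limma), for DNFB and BAC. Filled points passed an adjusted p of 0.05. Klf15 has the lowest value after DNFB, at -1.59, and Klf6 the highest after both compounds, at 0.94 and 1.05.

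Among the 33 tested probe sets, 14 were called for DNFB against vehicle, 4 higher and 10 lower, where 10.4% of all 29987 tested probe sets were called (4.63% higher and 5.81% lower). For BAC against vehicle 12 were called, 9 higher and 3 lower, against 10.2% of all (4.91% higher and 5.25% lower). The direct comparison of DNFB with BAC called 5, 1 higher and 4 lower, against 4.96% of all (1.95% higher and 3% lower). Probe sets of 1 gene share their source, so these counts do not stand for separate results.

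**Figure D2:**
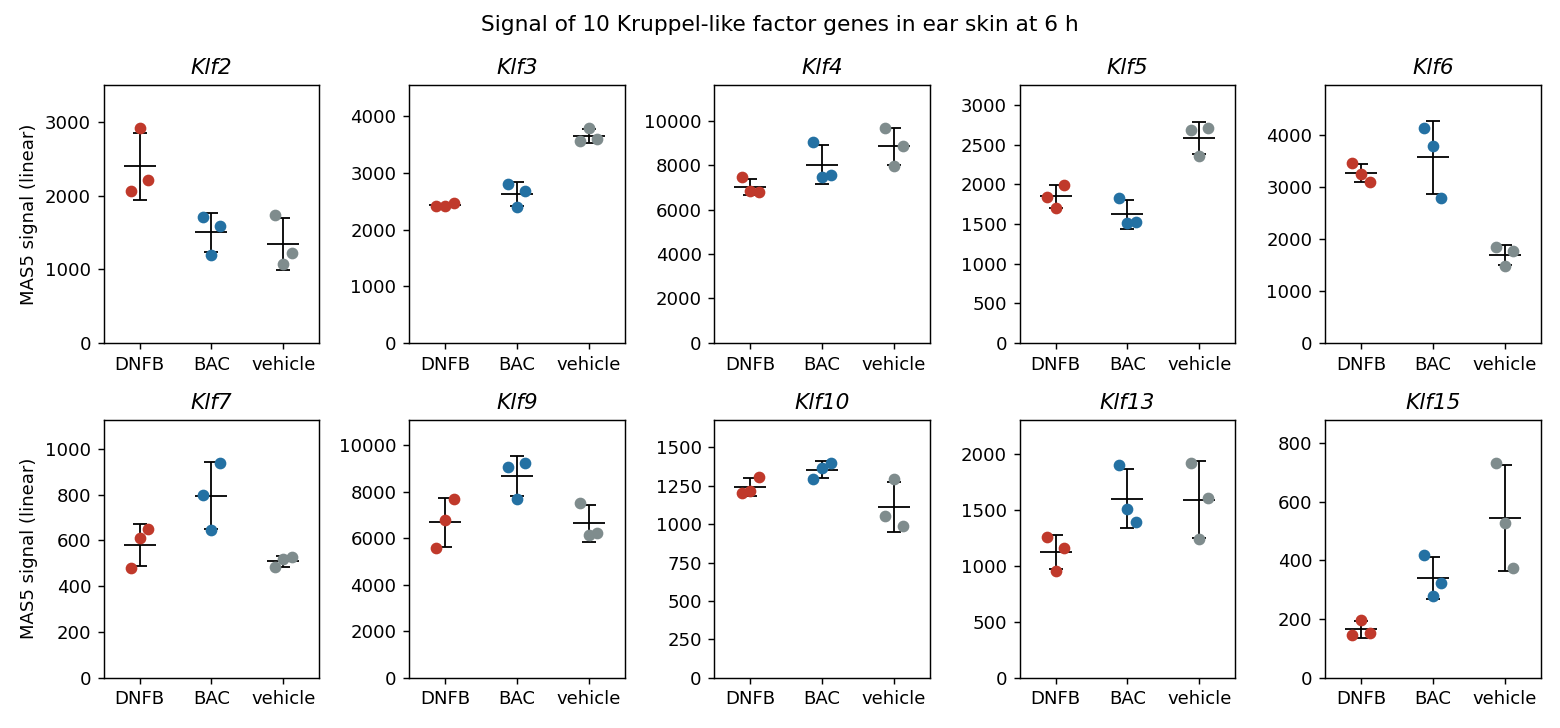
Signal of each of the 10 Kruppel-like factor genes (vertical axes, linear MAS5 signal of the gene's representative probe set, each from 0), by treatment (DNFB, BAC, vehicle). Points are arrays, and the lines show the mean and SD of 3 arrays. Klf6 lies above vehicle in all 6 treated arrays, Klf3 and Klf5 lie below it in all 6, and Klf15 is lowest in the 3 DNFB arrays.

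Klf6 is an early-response factor induced by tissue injury, with TGF-beta pathway genes and cell-cycle inhibitors among its known targets. Its brightest probe set, 1433508_at, had signals of 3451, 3244 and 3095 in DNFB arrays and 4128, 3783 and 2779 in BAC arrays, against 1845, 1482 and 1758 in vehicle arrays. All 6 treated arrays lay above all 3 vehicle arrays. The mean was 3263 ± 178 after DNFB, 3563 ± 701 after BAC and 1695 ± 190 with vehicle (SD, n = 3 each). On the log2(signal + 16) scale, which all changes below use, Klf6 rose by 0.94 ± 0.14 after DNFB (SE, limma adjusted p = 0.000224) and by 1.05 ± 0.14 after BAC (limma adjusted p = 8.08e-05). Those are folds of 1.92 and 2.07. Between DNFB and BAC this probe set gave -0.11, with a 95% interval of -0.40 to 0.18, and the arrays overlapped. Monocyte and macrophage markers, cells that also express Klf6, had a summed signal of 12252 to 13668 after DNFB and 14062 to 15265 after BAC, against 9095 to 10727 with vehicle, with 4 of 6 called higher after each compound. Their part in the Klf6 result, and that of the neutrophil markers, was not tested.

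The 5 Klf6 probe sets did not all give the same picture of DNFB against BAC. Probe sets 1433508_at, 1447448_s_at and 1459718_x_at were called higher after each compound, with no call between compounds. Probe set 1418280_at had 845, 926 and 633 in DNFB arrays and 1747, 1579 and 1370 in BAC arrays, against 645, 369 and 630 in vehicle arrays. All BAC arrays therefore lay above all others, and 1 DNFB array lay within the vehicle range. Tested among all probe sets with limma, 1418280_at rose by 1.52 ± 0.19 after BAC (adjusted p = 0.000106), gave 0.56 ± 0.19 after DNFB (adjusted p = 0.0839), and was lower after DNFB than after BAC by -0.96 ± 0.19 (adjusted p = 0.00897). Probe set 1427742_a_at had 1230, 1173 and 1986 after DNFB and 2836, 2208 and 2216 after BAC, against 1510, 1004 and 1195 with vehicle. It rose by 0.97 ± 0.19 after BAC (adjusted p = 0.00374), gave 0.22 ± 0.19 after DNFB (adjusted p = 0.54), and gave -0.75 ± 0.19 for DNFB against BAC (adjusted p = 0.0312). That last call was lost without DNFB replicate 1, DNFB replicate 2 or any BAC replicate (adjusted p between 0.058 and 0.126), while the call for 1418280_at between compounds remained without any 1 array. Probe positions along the transcript were not used here. Names ending in a_at, s_at or x_at mark probe sets that can match more than 1 transcript, with s_at or x_at also of other genes.

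**Figure D3:**
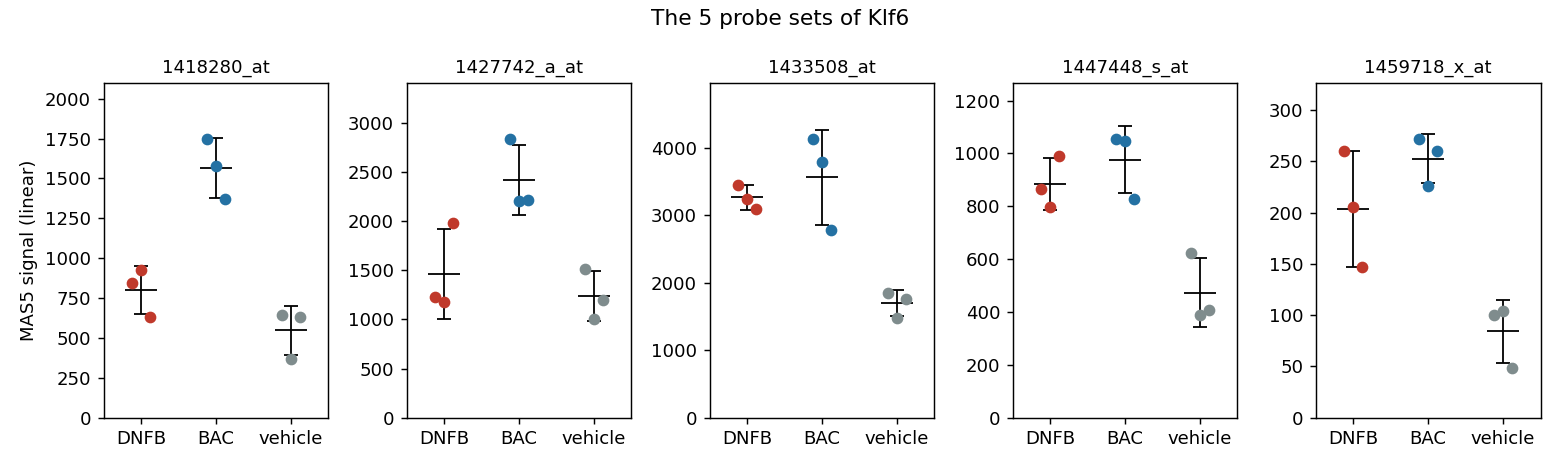
Signal of the 5 Klf6 probe sets (vertical axes, linear MAS5 signal, each from 0), by treatment (DNFB, BAC, vehicle), with points for arrays and lines for the mean and SD of 3 arrays. In 1418280_at and 1427742_a_at the BAC arrays lie above the DNFB and vehicle arrays, while in 1433508_at, 1447448_s_at and 1459718_x_at the DNFB and BAC arrays share a range above vehicle.

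Klf2 is the flow-induced factor of quiet endothelium and is also expressed in resting T cells and macrophages. Its probe set 1448890_at had signals of 2069, 2923 and 2222 in DNFB arrays and 1712, 1201 and 1594 in BAC arrays, against 1739, 1073 and 1221 in vehicle arrays. Every DNFB array lay above every BAC and vehicle array, and the BAC and vehicle arrays shared a range. Klf2 rose by 0.85 ± 0.18 after DNFB (limma adjusted p = 0.00482, fold 1.80), while BAC against vehicle gave 0.17 with an interval of -0.21 to 0.55 (adjusted p = 0.575). DNFB exceeded BAC by 0.67 ± 0.18 (adjusted p = 0.0349, fold 1.59). This last call was lost without DNFB replicate 2 (0.52, adjusted p = 0.144), DNFB replicate 3 (0.72, adjusted p = 0.0743), BAC replicate 2 (0.52, adjusted p = 0.156) or BAC replicate 3 (0.72, adjusted p = 0.0632). DNFB replicate 2, with the highest Klf2 signal, is also the array with the highest Gapdh 3'/5' ratio.

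Endothelial markers were also brighter in the DNFB arrays. The summed signal of Pecam1, Cdh5, Kdr, Tek, Vwf and Emcn was 2068 to 2759 in DNFB arrays and 1705 to 2191 in BAC arrays, against 1427 to 1728 in vehicle arrays. After DNFB 2 of the 6 were called higher, Cdh5 and Vwf, after BAC only Cdh5, and between the compounds Vwf was higher after DNFB. T cell markers were dim, with a summed signal of 252 to 357 after DNFB, 203 to 348 after BAC and 327 to 431 with vehicle. Their part in the Klf2 result was not tested.

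MEF2 factors, switched on by the kinase ERK5 (encoded by Mapk7), induce Klf2 and Klf4 in endothelium, where nitric oxide synthase (Nos3) and thrombomodulin (Thbd) are known Klf2 targets. Of 9 genes listed for this pathway, 2 rose and 1 fell after DNFB, 2 rose and 0 fell after BAC, and 0 were called between the compounds, also at an unadjusted p under 0.05. Nos3 had signals of 563, 653 and 628 after DNFB and 555, 631 and 564 after BAC, against 250, 236 and 215 with vehicle. Both compounds thus gave Nos3 signals above all vehicle arrays and in the same range as each other. Nos3 rose by 1.34 ± 0.13 after DNFB (limma adjusted p = 5.12e-06) and by 1.26 ± 0.13 after BAC (adjusted p = 7.61e-06), and Thbd rose by 0.83 ± 0.15 and 1.02 ± 0.15 (adjusted p = 0.0019 and 0.000335). Nos3 and Thbd were called higher after BAC, while Klf2 gave 0.17 there with an interval of -0.21 to 0.55 and no call. Any link between Klf2 and these 2 genes was not tested. Mef2c fell by 0.39 after DNFB (adjusted p = 0.0472), a call lost on leaving out any array other than DNFB replicate 3 (adjusted p between 0.0505 and 0.181) or on averaging its probe sets (-0.19, adjusted p = 0.454). Between the compounds the smallest p was that of S1pr1, a sphingosine phosphate receptor gene, at -0.32 ± 0.16 (adjusted p = 0.267). The list's median change was -0.01 after DNFB, 0.00 after BAC and 0.07 between them, against 0.00, -0.03 and 0.03 for all tested genes.

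Klf15 is a factor of metabolic control in liver and muscle and is known to be induced directly by glucocorticoids. Probe set 1448181_at had signals of 144, 197 and 154 in DNFB arrays and 417, 277 and 323 in BAC arrays, against 733, 528 and 373 in vehicle arrays. The treatments stood in the order DNFB, BAC, vehicle from low to high, with DNFB below every other array and BAC overlapping vehicle. Means were 165 ± 28.0 after DNFB, 339 ± 71.1 after BAC and 544 ± 181 with vehicle (SD, n = 3 each). Klf15 fell by 1.59 ± 0.22 after DNFB (limma adjusted p = 0.000151), to 0.33 of the vehicle level, which was the largest change among the 10 members. DNFB was also below BAC, by -0.96 ± 0.22 (adjusted p = 0.0149, fold 0.51). That difference was no longer called without BAC replicate 1 (-0.81, adjusted p = 0.0651) or DNFB replicate 3 (-0.93, adjusted p = 0.0594). BAC against vehicle gave -0.63 with an interval of -1.09 to -0.16 (adjusted p = 0.07), and passed without vehicle replicate 3 (-0.87, adjusted p = 0.0184) or BAC replicate 1 (-0.78, adjusted p = 0.0448). Skeletal muscle and adipose tissue also express Klf15. The 6 skeletal muscle markers had a summed signal of 35839 to 42420 after DNFB and 28290 to 43097 after BAC, against 25118 to 31102 with vehicle, and 4 of 6 were called higher after DNFB and 0 of 6 after BAC by limma (3 at an unadjusted p under 0.05). The 3 adipocyte markers measured had 14821 to 18218 after DNFB and 12548 to 16048 after BAC, against 11342 to 13906 with vehicle, with 1 of 3 called higher after DNFB and 0 of 3 after BAC (0 at an unadjusted p under 0.05). Their part in the Klf15 values was not tested.

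Glucocorticoid-responsive genes did not share a single direction. Of 9 listed genes, 1 rose and 2 fell after DNFB, 2 rose and 0 fell after BAC, and 2 were lower after DNFB than after BAC. Zbtb16, a zinc-finger gene, had 441, 503 and 530 after DNFB and 1499, 987 and 812 after BAC, against 1317, 996 and 1126 with vehicle. Like Klf15, it was lower in the 3 DNFB arrays than in all others, by -1.19 ± 0.18 against vehicle (limma adjusted p = 0.000354) and -1.09 ± 0.18 against BAC (adjusted p = 0.00169). Averaging the Zbtb16 probe sets ended the call against BAC (-0.77, adjusted p = 0.138). Fkbp5, which encodes a receptor co-chaperone, gave -0.63 ± 0.15 against vehicle (adjusted p = 0.0101) and -0.68 ± 0.15 against BAC (adjusted p = 0.0121). Its calls were lost without vehicle replicate 1 (adjusted p = 0.0626) and without BAC replicate 2 (adjusted p = 0.0627). Dusp1, a MAP kinase phosphatase, rose by 0.60 ± 0.15 after DNFB (adjusted p = 0.0128, lost without DNFB replicate 2 at 0.0541) and by 1.08 ± 0.15 after BAC (adjusted p = 0.000147). The clock gene Per1 rose by 0.86 ± 0.21 after BAC (adjusted p = 0.0109, lost without BAC replicate 1 at 0.0506). The list's median was 0.06 after DNFB, 0.05 after BAC and -0.20 between them, against 0.00, -0.03 and 0.03 for all tested genes.

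Klf9 and Klf13, close relatives of each other that are best known as repressors acting through Sin3A, were not called at the level of the gene. Klf9, also a glucocorticoid-induced gene, had 5583, 6788 and 7699 in DNFB arrays and 9088, 7677 and 9258 in BAC arrays, against 7540, 6146 and 6231 in vehicle arrays at probe set 1456341_a_at. All BAC arrays lay above all vehicle arrays, and DNFB overlapped both. BAC against vehicle gave 0.39 with an interval of 0.12 to 0.66 (limma adjusted p = 0.0556). DNFB against vehicle gave 0.00 with an interval of -0.27 to 0.28. DNFB against BAC gave -0.38 ± 0.13 (limma adjusted p = 0.0889), with no call. The BAC change passed in 6 of 19 alternatives: without BAC replicate 2 (0.47, adjusted p = 0.0471), vehicle replicate 1 (0.48, adjusted p = 0.0459), DNFB replicate 1 (adjusted p = 0.0349) or DNFB replicate 3 (adjusted p = 0.0478), with the filter at the 60th percentile (adjusted p = 0.0476), and over the BAC and vehicle arrays alone (adjusted p = 0.0431). Tested as separate probe sets, 2 of 7 Klf9 probe sets were called higher after BAC: 1428288_at at 0.55 ± 0.10 (adjusted p = 0.00271), and 1428289_at at 0.45 ± 0.12 (adjusted p = 0.022). For 1428288_at the signals were 4793, 4746 and 4396 after DNFB and 6053, 5148 and 6405 after BAC, against 4228, 3953 and 3776 with vehicle, with no overlap between any groups. Its DNFB change was 0.22 ± 0.10 (adjusted p = 0.206). Probe set 1422264_s_at, at 227, 307 and 314 after DNFB against 673, 491 and 551 after BAC, gave -0.98 ± 0.24 between the compounds (adjusted p = 0.0262), a call lost without DNFB replicate 1, BAC replicate 1 or BAC replicate 3 (adjusted p up to 0.102). The call of 1428289_at was lost without BAC replicate 1 or 3 or vehicle replicate 2 or 3 (adjusted p up to 0.0827).

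Klf13 had 1257, 953 and 1155 in DNFB arrays and 1898, 1505 and 1391 in BAC arrays, against 1920, 1234 and 1609 in vehicle arrays at 1436316_at. DNFB lay below BAC without overlap but overlapped vehicle, whose replicate 2 was its lowest array. DNFB against BAC gave -0.50 ± 0.16 (limma adjusted p = 0.0766), with no call, and passed in 3 of 19 alternatives. The change after DNFB was -0.48 ± 0.16 (limma adjusted p = 0.0615), passing without vehicle replicate 2 (-0.65, adjusted p = 0.0119), and after BAC 0.02 ± 0.16 (adjusted p = 0.955). A further Klf13 probe set, 1432543_a_at, had 656, 738 and 975 after DNFB and 1164, 979 and 1012 after BAC, against 1248, 1235 and 1047 with vehicle. It fell by 0.58 ± 0.14 after DNFB (adjusted p = 0.0173), a call lost without DNFB replicate 1 or 2 or vehicle replicate 1 or 2 (adjusted p up to 0.0783).

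Klf4, the barrier factor of the upper epidermis, had 7449, 6814 and 6780 in DNFB arrays and 9014, 7476 and 7564 in BAC arrays, against 9669, 7976 and 8862 in vehicle arrays at 1417394_at. DNFB lay below every other array, and BAC and vehicle overlapped. DNFB against BAC gave -0.19 ± 0.11 (limma adjusted p = 0.329), with no call. The difference of DNFB from vehicle was -0.33 ± 0.11, with an interval of -0.56 to -0.10 and a limma adjusted p of 0.0519. It passed in 6 of 19 alternatives, and the highest adjusted p over all of them was 0.232. It passed without vehicle replicate 2 (-0.40, adjusted p = 0.0281) or BAC replicate 1 (adjusted p = 0.0467), and under quantile normalization (-0.51, adjusted p = 0.00499). The others were a replicate block (adjusted p = 0.043), the mean of the probe sets (-0.39, adjusted p = 0.0446) and the filter at the 60th percentile (adjusted p = 0.0402). The other Klf4 probe set, 1417395_at, had 4123, 4945 and 6371 after DNFB and 7199, 6000 and 6168 after BAC, against 7483, 6622 and 6737 with vehicle. It was called lower after DNFB (-0.45 ± 0.13, adjusted p = 0.044) and not after BAC (-0.11 ± 0.13, adjusted p = 0.681). The DNFB call was lost on leaving out any array other than DNFB replicate 3 or BAC replicate 1 (adjusted p between 0.0534 and 0.173).

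Klf5, the factor of proliferating basal keratinocytes, had 1842, 1708 and 1999 in DNFB arrays and 1833, 1507 and 1530 in BAC arrays, against 2691, 2355 and 2713 in vehicle arrays at 1451021_a_at. All 6 treated arrays lay below all vehicle arrays. It fell by 0.48 ± 0.11 after DNFB (limma adjusted p = 0.00917) and by 0.67 ± 0.11 after BAC (adjusted p = 0.000824), and DNFB against BAC gave 0.19 with an interval of -0.05 to 0.43. Probe set 1451739_at had 203, 160 and 263 after DNFB and 284, 253 and 257 after BAC, against 424, 324 and 423 with vehicle. It fell by 0.87 ± 0.19 after DNFB (adjusted p = 0.00657) and gave -0.53 ± 0.19 after BAC (adjusted p = 0.0885). The remaining Klf5 probe set, 1430255_at, was dim, with signals from 8.46 to 82.3 over the arrays. After BAC it had 79.3, 82.3 and 73.6, above 16.5, 40.3 and 58.8 with vehicle. Between these groups 31.3% of all tested probe sets did not overlap. It gave 0.87 ± 0.49 after BAC (limma adjusted p = 0.3), opposite in sign to the other Klf5 probe sets. Averaging the 3 probe sets of Klf5 ended both calls, at -0.51 after DNFB (adjusted p = 0.0679) and -0.11 after BAC (adjusted p = 0.728).

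Genes of keratinocyte growth and differentiation that are studied beside Klf4 and Klf5 were called lower more often than higher in each comparison. Of 15 listed, 1 rose and 8 fell after DNFB, where 6.76% of all tested genes were called higher and 7.08% lower. After BAC 2 rose and 5 fell, against 6.59% and 7.64% of all tested genes. In DNFB against BAC 0 were higher and 5 lower, against 3.14% and 3.66%. That left 6, 8 and 10 not called. The list's medians were -0.61, -0.21 and -0.13, against 0.00, -0.03 and 0.03 for all tested genes. Gata3, a factor of epidermal and hair follicle differentiation, had 219, 379 and 339 after DNFB and 346, 425 and 256 after BAC, against 977, 762 and 1070 with vehicle. It fell by 1.56 ± 0.21 after DNFB (limma adjusted p = 0.00012) and by 1.42 ± 0.21 after BAC (adjusted p = 0.000254). Trp63, the master gene of basal keratinocytes, had 730, 807 and 788 after DNFB and 1715, 1703 and 1415 after BAC, against 1600, 1705 and 1722 with vehicle. It was lower after DNFB by -1.10 ± 0.11 against vehicle (adjusted p = 7.14e-06) and -1.04 ± 0.11 against BAC (adjusted p = 2.68e-05). Grhl3, a barrier factor, was likewise lower, at -1.06 ± 0.13 and -0.77 ± 0.13 (adjusted p = 5.84e-05 and 0.00216).

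Zfp750, an epidermal factor known to act upstream of Klf4, had 671, 499 and 576 after DNFB and 1682, 1645 and 1467 after BAC, against 1158, 1137 and 1186 with vehicle. It was lower after DNFB than after BAC by -1.44 ± 0.12 (limma adjusted p = 3.01e-06), with the vehicle arrays between the compounds. After BAC the barrier protein gene Flg fell by 1.16 ± 0.24 (adjusted p = 0.00362) and the repressor gene Prdm1 by 0.83 ± 0.14 (adjusted p = 0.000923). Prdm1 was called lower after DNFB as well, at -0.84 (limma adjusted p = 0.000843). Cdkn1a, the p21 cell-cycle inhibitor gene that Klf4 and Klf6 are known to induce, was singled out after its values were seen. It rose by 0.78 ± 0.12 after DNFB (adjusted p = 0.000513) and by 0.62 ± 0.12 after BAC (adjusted p = 0.00332). The 6 keratinocyte markers had a summed signal of 63140 to 74171 after DNFB and 68685 to 72274 after BAC, against 69683 to 80297 with vehicle, and 3 of 6 were called lower after DNFB and 2 after BAC. Their part in the Klf4 and Klf5 values was not tested.

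Klf3 is a repressor that works through the C-terminal binding proteins CtBP1 and CtBP2 and is expressed in the epidermis. Its representative probe set, 1454666_at, had 2414, 2406 and 2461 in DNFB arrays and 2800, 2392 and 2685 in BAC arrays, against 3564, 3792 and 3594 in vehicle arrays. All treated arrays lay below all vehicle arrays, with DNFB and BAC sharing a range. Klf3 fell by 0.59 ± 0.10 after DNFB (limma adjusted p = 0.000615, fold 0.67) and by 0.48 ± 0.10 after BAC (adjusted p = 0.00335, fold 0.72). The difference between compounds was -0.11, with an interval of -0.31 to 0.09.

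All 7 Klf3 probe sets gave a negative change after DNFB, from -0.59 to -1.12, with every DNFB array below every vehicle array, where 28.1% of all tested probe sets did not overlap between these groups. Of these, 5 were called lower, 3 of them without any 1 array too. The call of 1431630_a_at was lost without vehicle replicate 3 (adjusted p = 0.0544), and that of 1441200_at without DNFB replicate 3 or vehicle replicate 1 or 3 (adjusted p up to 0.121). After BAC all 7 changes were negative as well, from -0.24 to -0.93, 6 of 7 did not overlap vehicle (31.3% of all tested probe sets), and 2 were called lower. Probe set 1421604_a_at had 737, 682 and 1147 after DNFB and 1354, 1117 and 1323 after BAC, against 1731, 1464 and 1709 with vehicle. It fell by 0.96 ± 0.17 after DNFB (limma adjusted p = 0.00141) and gave -0.37 ± 0.17 after BAC (adjusted p = 0.186). Probe set 1429360_at fell by 1.12 ± 0.18 after DNFB (adjusted p = 0.000873) and by 0.93 ± 0.18 after BAC (adjusted p = 0.00405). In both probe sets DNFB replicate 3 was the highest DNFB array. For DNFB against BAC, where 22.8% of all tested probe sets did not overlap, 1 of 7 Klf3 probe sets, 1431630_a_at, had no overlap.

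**Figure D4:**
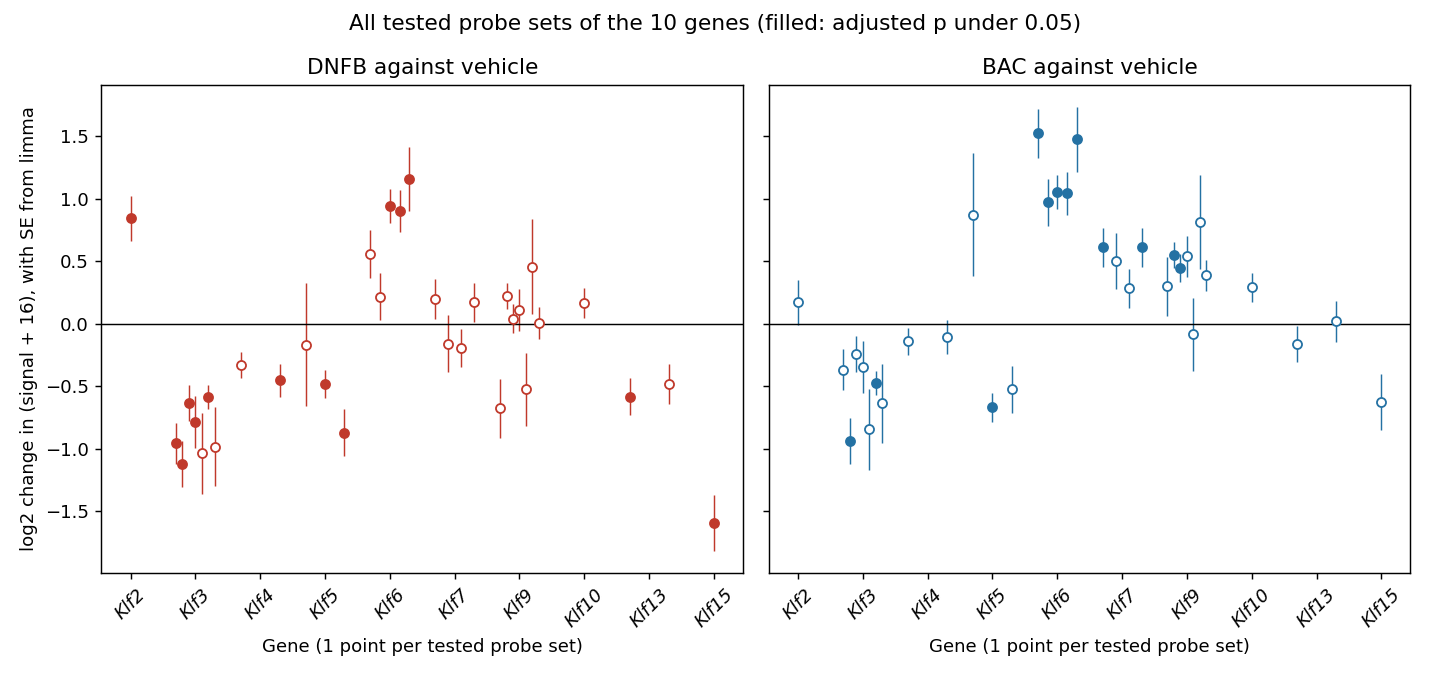
Log2 change of each tested probe set of the 10 Kruppel-like factor genes against vehicle (vertical axis, difference in log2(signal + 16), with SE from limma), for DNFB (left) and BAC (right). Filled points passed an adjusted p of 0.05. The 7 Klf3 points lie below 0 after both compounds, the 5 Klf6 points lie above it, and the single Klf15 point is the lowest after DNFB.

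CtBP proteins, the Sin3A-HDAC complex and the ubiquitin ligases that degrade KLFs are the family's protein partners. Of 10 such genes, 1 rose and 1 fell after DNFB, and 0 were called after BAC or between the compounds by limma. At an unadjusted p under 0.05 there were 0 after BAC and 2 between the compounds. Ctbp2 had 597, 596 and 525 after DNFB and 421, 425 and 468 after BAC, against 421, 328 and 415 with vehicle. It rose by 0.55 ± 0.13 after DNFB (adjusted p = 0.0126, lost without vehicle replicate 2 at 0.0519), and DNFB against BAC gave 0.37 ± 0.13 (adjusted p = 0.114). Averaging the Ctbp2 probe sets gave 0.26 after DNFB and ended the call (adjusted p = 0.284). Fbxw7, the recognition subunit of a ubiquitin ligase for Klf5, fell by 0.54 ± 0.17 after DNFB (adjusted p = 0.0443). That call was lost without DNFB replicate 1 or 2, BAC replicate 3, or vehicle replicate 1 or 3 (adjusted p between 0.0545 and 0.19). After BAC it gave -0.33 ± 0.17, the smallest p of the list there (adjusted p = 0.219). The list's medians were -0.03, -0.10 and 0.09, against 0.00, -0.03 and 0.03 for all tested genes.

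Klf7, known for neuron growth and for restraint of adipocyte differentiation, had 477, 612 and 650 in DNFB arrays and 798, 646 and 940 in BAC arrays, against 482, 519 and 525 in vehicle arrays at 1449439_at. All BAC arrays lay above all vehicle arrays, and DNFB overlapped both. It rose by 0.61 ± 0.15 after BAC (limma adjusted p = 0.0133, fold 1.53). After DNFB it gave 0.17 with an interval of -0.15 to 0.49 (adjusted p = 0.531). DNFB against BAC gave -0.44 ± 0.15 (limma adjusted p = 0.0987), with no call. The call after BAC was lost without BAC replicate 3 (0.48, adjusted p = 0.0738) or vehicle replicate 1 (0.57, adjusted p = 0.0571), and when arrays were rescaled to a common median (0.51, adjusted p = 0.0904). A further Klf7 probe set, 1419354_at, had 478, 638 and 574 after DNFB and 741, 719 and 796 after BAC, against 548, 552 and 379 with vehicle, and rose by 0.61 ± 0.16 after BAC (adjusted p = 0.0223). This call was lost without any BAC array or without vehicle replicate 3 (adjusted p between 0.0524 and 0.106). The other Klf7 probe sets gave 0.50 and 0.28 after BAC with no call.

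Klf10, the TGF-beta inducible early gene, had 1206, 1215 and 1307 in DNFB arrays and 1295, 1367 and 1401 in BAC arrays, against 1051, 1294 and 989 in vehicle arrays. The BAC arrays lay just above the vehicle arrays, and the highest vehicle array was replicate 2. The change was 0.17 ± 0.12 after DNFB (limma adjusted p = 0.397) and 0.29 ± 0.12 after BAC (adjusted p = 0.113). The BAC change passed without vehicle replicate 2 (0.40, adjusted p = 0.0318). Of 10 tested TGF-beta pathway genes, 1 rose after DNFB, 3 rose after BAC, 0 fell after either and 0 were called between them, where 1, Smad3, had an unadjusted p under 0.05. Skil, a feedback repressor of SMAD proteins, had 2538, 2148 and 2348 after DNFB and 2080, 1937 and 2158 after BAC, against 1344, 1385 and 1308 with vehicle. It rose by 0.79 ± 0.10 after DNFB (adjusted p = 7.51e-05) and by 0.61 ± 0.10 after BAC (adjusted p = 0.000791).

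Smad3, the signal transducer, rose by 0.52 ± 0.14 after BAC (limma adjusted p = 0.0207) and gave -0.46 ± 0.14 for DNFB against BAC (adjusted p = 0.0579). The receptor gene Tgfbr1 rose by 0.44 ± 0.12 after BAC (adjusted p = 0.0217). The Smad3 call was lost without BAC replicate 1 or 3 or vehicle replicate 1 or 3 (adjusted p up to 0.0926), and the Tgfbr1 call without BAC replicate 1 or 2 or vehicle replicate 2 or 3 (up to 0.0792). Averaging the probe sets of a gene also ended both (0.52, adjusted p = 0.0909 for Smad3, and 0.42, adjusted p = 0.171 for Tgfbr1), as did rescaling arrays to a common median (adjusted p = 0.153 and 0.209). The list's medians were 0.15 after DNFB, 0.11 after BAC and 0.06 between them, against 0.00, -0.03 and 0.03 for all tested genes.

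Outside the 10 members, 13 of 16 other KLF and SP genes were matched by symbol and 11 passed the filter on low values. After DNFB 1 rose and 1 fell, after BAC 1 rose, and between the compounds 1 was higher after DNFB. At an unadjusted p under 0.05 there were 3, 1 and 6 in these comparisons. The gene that rose in each was Klf16, a relative of Klf9 and Klf13, with signals of 804, 623 and 845 in DNFB arrays and 419, 419 and 448 in BAC arrays, against 347, 294 and 291 in vehicle arrays. The 3 groups did not overlap, and the order was DNFB, BAC, vehicle from high to low. Klf16 rose by 1.24 ± 0.14 after DNFB (limma adjusted p = 2.68e-05, fold 2.36) and was higher after DNFB than after BAC by 0.79 ± 0.14 (adjusted p = 0.00311). After BAC it rose by 0.45 ± 0.14 (adjusted p = 0.0444), a call lost without any single BAC or vehicle array (adjusted p between 0.055 and 0.131) or at a common median of the arrays (0.35, adjusted p = 0.198).

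Sp6, a factor of epithelial appendages, had 236, 211 and 290 after DNFB and 282, 416 and 317 after BAC, against 350, 384 and 520 with vehicle. It fell by 0.72 ± 0.19 after DNFB (limma adjusted p = 0.0167), a call lost without DNFB replicate 2 (adjusted p = 0.0716) or vehicle replicate 3 (adjusted p = 0.0986). Averaging the Sp6 probe sets also ended it (-0.47, adjusted p = 0.168). After BAC it gave -0.29 ± 0.19 (adjusted p = 0.337). The general factor Sp1 had 1306, 1329 and 1531 after DNFB and 1227, 1091 and 1071 after BAC, against 1251, 1118 and 1075 with vehicle, and gave 0.27 ± 0.11 after DNFB (adjusted p = 0.134). Sp3 gave -0.18 after DNFB and 0.01 after BAC, Sp4 0.11 and 0.23, and Sp7 0.17 and 0.31. Klf11 gave 0.06 and -0.26, Klf12 -0.38 and -0.44, Klf14 0.44 and -0.30, Klf17 -0.69 and 0.24, and Klf1 0.03 and 0.01, with no call. The medians of these 11 genes were 0.06 after DNFB, 0.01 after BAC and 0.02 between them. Those of all tested genes were 0.00, -0.03 and 0.03.

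**Figure D5:**
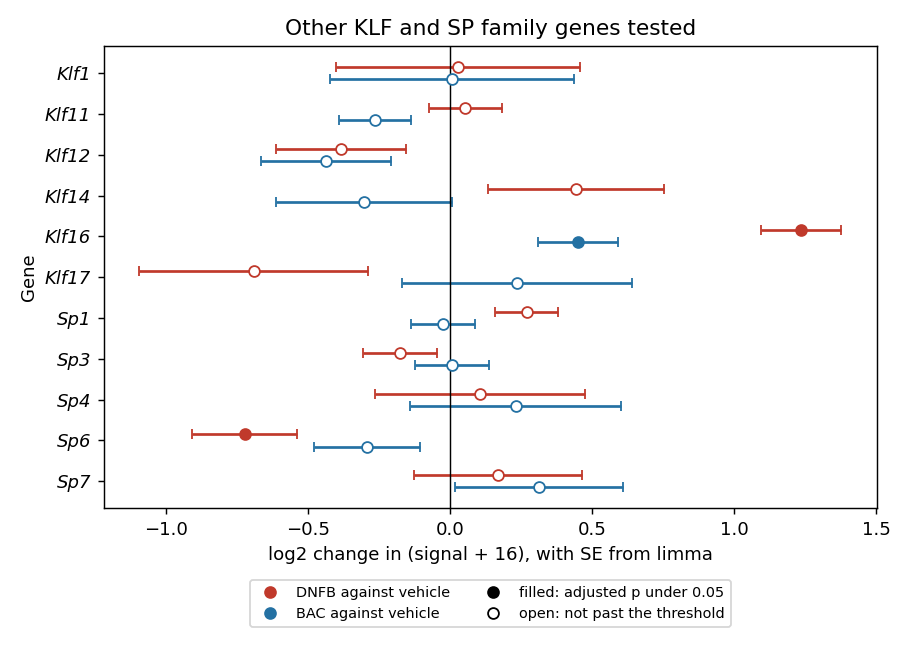
Log2 change against vehicle of the 11 other tested KLF and SP family genes (horizontal axis, difference in log2(signal + 16), with SE from limma), for DNFB and BAC. Filled points passed an adjusted p of 0.05: Klf16 at 1.24 after DNFB and 0.45 after BAC, and Sp6 at -0.72 after DNFB.

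The genes whose log2 profile over the 9 arrays lay nearest to each changed member were searched among 7060 genes brighter than the median tested gene, by the root mean square difference after centring. For Klf3 these were the forkhead gene Foxn3 at 0.05 and Kctd15 at 0.09, where the Klf3 profile itself has a root mean square of 0.26. For Klf5 they were Usp46 and Stard10, both at 0.08 beside 0.30 for the member. Klf6 lay nearest to Ctla2a at 0.15 and Gfpt2 at 0.17, beside 0.50. Klf7 lay nearest to Pla2g7 at 0.10 and Adamts5 at 0.12, beside 0.31. Klf2 lay nearest to the phosphodiesterase gene Pde8a at 0.17 and the adhesion gene Ceacam1 at 0.21, beside 0.44. Klf15 lay nearest to Ddit4 at 0.26 and Cyp1a1 at 0.27, beside 0.71. The profile of Klf3 was thus matched most closely for its size, and that of Klf2 less closely.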

How the data were processed

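Total RNA was extracted with TRIzol and the RNeasy Plus Mini kit and labelled with the 3' IVT Express kit, according to the labels. Deposited were MAS5 intensities on a linear scale, 1 per probe set and array, made by the authors with MAS5 and Affymetrix Expression Console per the submitters' processing notes. No version or setting is stated, and detection calls were not used here, so low signal was not separated from background. The number of arrays limits the precision.

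Genes were named from the platform annotation, which gave 34945 probe sets 1 gene, 932 several and 9160 none; 0 of those with several named a member. The 64 control probe sets were left out. Each gene was read from its brightest probe set, by mean log2 signal. Features were kept above the array's 40th percentile in at least 3 of 9 arrays, which left 14122 of 18193 genes and 29987 probe sets. The deposited signals were transformed as log2(signal + 16), which understates changes of dim genes. The lmFit and eBayes (trend) functions of limma 3.58.1, under R 4.3.3, fitted all 9 arrays with a mean per treatment, on 6 residual degrees of freedom and 9.09 from the prior. The tests were two-sided and Benjamini-Hochberg adjusted over all tested genes or probe sets, with a threshold of 0.05. Groups of 3 arrays cannot give an exact permutation p under 0.1.

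The members, lists and naming rule were chosen with earlier results of these data known. Named are all members and other family genes, up to 3 called genes with the largest change per list and comparison (or that with the smallest p), and the 2 nearest profiles per member past the F test. In 9 same-numbered pairs, deviations from group means correlated with r from -0.12 to 0.15, and 1 pair exceeded 0.1. Pairs with different numbers ranged from -0.16 to 0.12. With 3 arrays a group, these values neither show nor exclude pairing by number, and the main fit used none. Promoters are RefSeq's on GRCm38.p6. The procedure was tested on simulated data. There were 19 alternatives, listed with their effects at the end.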

Additional observations from a re-analysis of the deposited data

How the results depend on the processing

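Across 19 alternatives the members' changes, 570 values in all, kept both their sign and their side of the threshold in 517. Of the rest, 19 called changes lost their call, 21 gained a call, and 13 uncalled changes turned sign and stayed uncalled. Pathway genes, put through the same alternatives after their values were seen, lost their call in 95 of 817 values. No called change of a member, a probe set or a listed gene reversed under any alternative. Klf3, Klf6 and Klf15 after DNFB and Klf3 and Klf6 after BAC kept their calls in every alternative, and neither call between DNFB and BAC did. Without the intensity trend, DNFB against vehicle gave 3 members, 1202 genes and 8 member probe sets, BAC against vehicle 5 probe sets, and DNFB against BAC 0 members, 402 genes and 0 probe sets, with 5 members at an unadjusted p under 0.05 (limma). For DNFB against BAC, no filter gave 1 member and 3 probe sets, averaging the probe sets of a gene gave 1 member, and rescaling arrays to a common median gave 581 genes and 1 probe set. That rescaling also made 33.0% of BAC calls higher, against 46.3%, with a median of all genes of -0.13. Whether the replicate numbers pair the arrays is not known. With a replicate block, 7, 4 and 3 members and 1874, 1939 and 860 genes were called in the 3 comparisons. Klf4 and Klf13 after DNFB were then added (limma adjusted p = 0.043 and 0.016).

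Leaving out 1 array gave 5 to 7, 3 to 5 and 0 to 3 members, 10 to 15, 9 to 15 and 1 to 8 probe sets, and 1249 to 1929, 1225 to 2148 and 513 to 999 genes, in the same order of comparisons. Of uncalled values, Klf9 after DNFB (1456341_a_at) turned to -0.15 under quantile normalization, -0.010 at a common median and -0.053 as a mean of probe sets, and 1428289_at to -0.091 under quantile normalization. Klf13 after BAC (1436316_at) turned to -0.083 at a common median and -0.052 as a mean, and Klf5 between DNFB and BAC to -0.40 as a mean. Over arrays left out, DNFB against vehicle ranged from -0.10 to 0.13 for Klf9, -0.64 to 0.29 for 1430255_at, -0.021 to 0.37 for 1427742_a_at, -0.40 to 0.12 for 1419355_at, -0.079 to 0.14 for 1428289_at and -0.074 to 0.24 for 1436763_a_at. BAC against vehicle ranged from -0.15 to 0.17 for Klf13, -0.038 to 0.47 for 1422264_s_at and -0.19 to 0.11 for 1436952_at. DNFB against BAC ranged from -0.28 to 0.0078 for Klf6 (1433508_at), -0.70 to 0.056 for 1436952_at and -0.64 to 0.22 for 1442920_at. The cause of these shifts was not tested.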

Other observations

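Log2 ratios between probe sets of the same gene within an array, each signal with 16 added, were taken for each of 23 tested member probe sets over the representative probe set of its gene, after the disagreement of the Klf6 probe sets had been seen. The smallest p that an exact permutation test of 3 arrays against 3 can give is 0.1. Of the 23 ratios, 3 were lower and 0 higher without overlap after DNFB than with vehicle. After BAC 3 were lower and 3 higher than with vehicle, and 6 were lower and 0 higher after DNFB than after BAC. These are 13%, 26.1% and 26.1% of the ratios, where each would separate with a probability of 0.1 if treatment made no difference. No share over ratios of all genes was taken, and ratios of 1 gene have a common denominator, so the counts do not show a disagreement beyond that level. The log2 ratio of Klf6 1418280_at to 1433508_at was -2.01, -1.79 and -2.26 in DNFB arrays and -1.23, -1.25 and -1.01 in BAC arrays, against -1.49, -1.96 and -1.46 in vehicle arrays. DNFB lay below BAC without overlap, by -0.86 (exact permutation p = 0.1, two-sided), and BAC lay above vehicle by 0.47 (exact permutation p = 0.1). The ratio of Klf6 1427742_a_at to 1433508_at was lower after DNFB than with vehicle by -0.72, also without overlap (exact permutation p = 0.1). For 1447448_s_at and 1459718_x_at over 1433508_at the groups overlapped in all 3 comparisons. The other 5 ratios lower after DNFB than after BAC were those of Klf5 1430255_at and 1451739_at to 1451021_a_at, by -1.23 and -0.53, of Klf9 1422264_s_at to 1456341_a_at, by -0.60, and of Klf3 1421604_a_at and 1431630_a_at to 1454666_at, by -0.48 and -0.29 (exact permutation p = 0.1 each). Probe set 1430255_at was dim, at 8.46 to 82.3 over the arrays, and the added 16 weighs most in dim probe sets. Which transcripts or transcript ends these probe sets read was not tested.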
